A study of Bos taurus with 12 samples.

Results

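The miRNAs bta-miR-323 (MI0009797), bta-miR-1197 (MI0010470) and bta-miR-485 (MI0009842) were taken from the deposited table by their miRBase identifiers, so that 3 of its 2712 features, and 3 of 368 miRNA features tested, are described here. The study listed all 3 as lower at d 92 than at d 0 on these same libraries. Its methods name an analysis of variance with a limit on fold change and mention no adjustment of p over features. The samples are biopsies of the longissimus muscle of 4 Angus-cross yearling steers, taken before a high concentrate diet (d 0) and after 92 and 124 days on it, and their small RNA gave 12 libraries with 4 per time. Every steer was sampled at each time and all were moved by step-up rations to the same high concentrate diet, so that there was no group kept off concentrates and time, age and diet cannot be told apart. The steers had 1 sire in common and were picked by the authors out of a larger group, for an intramuscular fat content near its mean at the later times. The biopsy site also changed, from the left side to the right side of one rib at d 92 and to the next rib on the left side at d 124. The steers are numbered 1 to 4 by their replicate number.

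The genes of these miRNAs lie in the DLK1-DIO3 domain, an imprinted region in which the protein-coding genes DLK1, RTL1 and DIO3 are expressed from the paternal chromosome, and the long non-coding RNAs MEG3 and MEG8 and many miRNAs from the maternal one. The miRNAs of the domain are thought to be cut from long maternal transcripts, and each mature miRNA then pairs through its seed with mRNAs to lower their stability or translation. In sheep the callipyge mutation, which enlarges muscles of the hindquarters, lies in this domain. RefSeq places 59 miRNA genes between DLK1 and DIO3 on the ARS-UCD2.0 assembly, which is newer than the bosTau4 build used by the authors, so no positions are given. MIR1197 and MIR323 are next to each other there, with MIR411B on one side and MIR758 on the other. MIR485 lies further along, between MIR668 and MIR453, with 27 miRNA genes between it and MIR323. Each of the 3 features in the table is a precursor hairpin, so its arms cannot be told apart.

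The table gives log2 values centred by the authors on the median of each feature. That median was recovered from levels that features share, so that a normalized level (log2) can be given for every library. The floor was put at 0, on the assumption that features at their lowest value in most libraries were at it. Of the muscle miRNAs looked for, bta-miR-208b, which is encoded within a slow myosin heavy chain gene, was the only one whose identifier is paired with a name in the sources used here, and it was at 8.68 or higher in all 12 libraries. Its mean level was 10.33 ± 0.60 (SD, n = 4) at d 0, 9.90 ± 0.83 at d 92 and 9.36 ± 0.20 at d 124, and its r over the 12 libraries was 0.46 with bta-miR-323, 0.51 with bta-miR-1197 and 0.042 with bta-miR-485. The part of muscle RNA in the results below was not tested. The blood cell miRNA bta-miR-144 had a mean level of 11.44 ± 1.19 (SD, n = 4) at d 0, 12.98 ± 1.07 at d 92 and 12.82 ± 0.77 at d 124, and the other blood miRNA with an identifier, bta-miR-142, of 11.19 ± 1.15, 12.00 ± 1.05 and 11.71 ± 0.48. The r of bta-miR-144 over the 12 libraries was -0.20 with bta-miR-323, -0.47 with bta-miR-1197 and -0.033 with bta-miR-485. That of bta-miR-142 was 0.045, -0.26 and 0.070 in the same order. Both are among 5 blood markers looked for, and the part of blood RNA in the results below was not tested. In bulk tissue, fewer cells of a type and less RNA per cell cannot be told apart.

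All 3 miRNAs passed the filter on low values, which asked for a level above the floor in 4 libraries. bta-miR-323 was above the floor in 12 libraries, bta-miR-485 in 11 and bta-miR-1197 in 10, and the last 2 were close to it in many. Within a library, features of low level fell on a small set of distinct levels shared by many features, and a feature's step on this set, counted from the floor, is its order among them. If the authors counted whole reads, a feature on step 5 had at least 5 reads, because every step up needs at least 1 more read. bta-miR-1197 was on steps 4, 8, 3 and 5 in steers 1, 2, 3 and 4 at d 0. At d 92 it was on steps 4, 1, 0 and 1, and at d 124 on steps 1, 5, 0 and 3, where step 0 is the floor. It was therefore never above step 8, and in 5 of 12 libraries it was on the first step or at the floor.

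bta-miR-485 was on steps 5, 6, 10 and 5 at d 0 in steers 1 to 4. Its steps were 2, 10, 2 and 0 at d 92 and 7, 15, 5 and 6 at d 124. bta-miR-323 was on steps 14, 18, 26 and 22 at d 0, on 8, 14, 11 and 13 at d 92 and on 21, 21, 29 and 9 at d 124. The first step alone was between 0.031 and 0.95 (log2) above the floor, depending on the library, and step 5 stood for a level between 1.76 and 3.28. A step is thus worth a different level in each library, and steps are not compared between times by a test here. For bta-miR-323 the steps at d 124 spanned those of d 0, from 9 to 29 against 14 to 26.

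**Figure D1:**
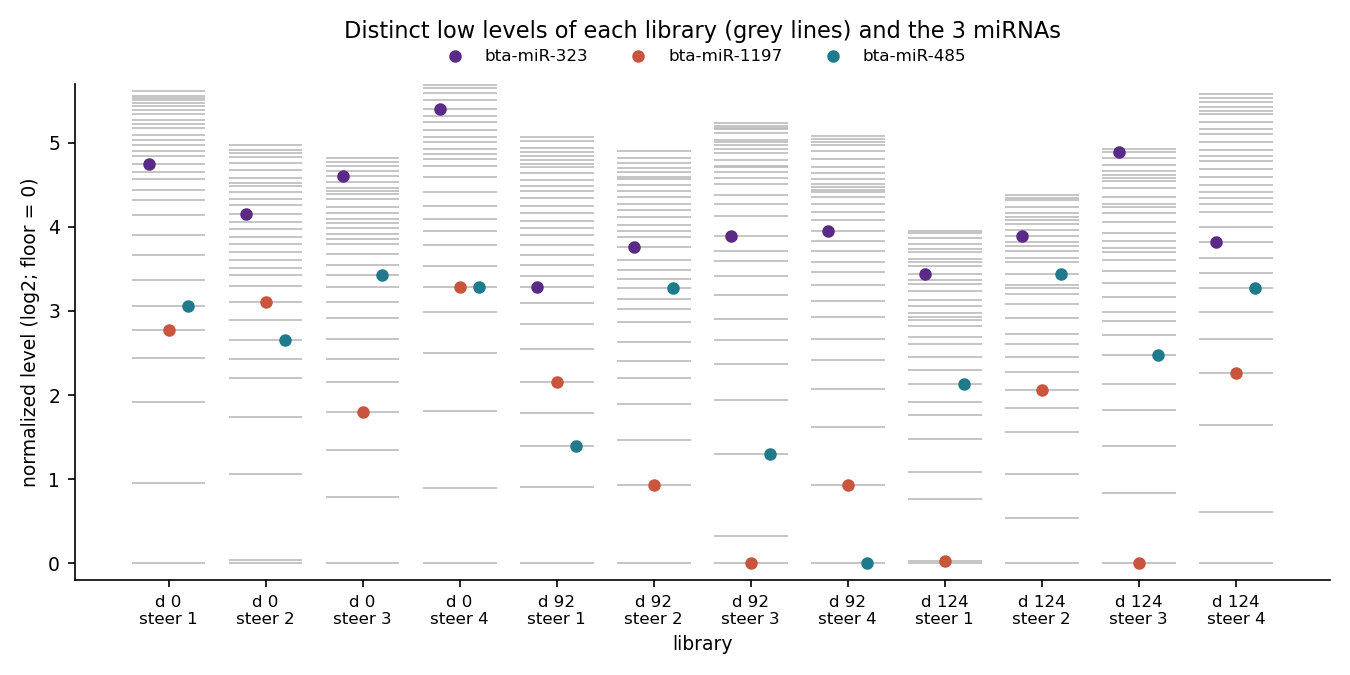
Normalized level (log2, vertical axis) of bta-miR-323, bta-miR-1197 and bta-miR-485 in each of the 12 libraries (horizontal axis), with grey lines for the floor and the lowest 30 distinct levels of that library. bta-miR-1197 sits on step 8 or lower in every library, while bta-miR-323 sits on step 8 or higher.

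The level of bta-miR-323 in steers 1 to 4 was 4.75, 4.15, 4.60 and 5.41 at d 0. At d 92 it was 3.29, 3.76, 3.90 and 3.95 in the same order. All 4 libraries of d 92 were thus under the lowest one of d 0, a pattern held by 2.45% of the 368 miRNA features, and the list that named bta-miR-323 was drawn from this comparison. At d 124 its levels were 3.44, 3.89, 4.89 and 3.82. Steers 1, 2 and 4 stayed near their d 92 level, whereas steer 3 was higher than it had been at d 0, so that d 124 overlapped with both other times. The means were 4.73 ± 0.52 (SD, n = 4) at d 0, 3.72 ± 0.30 at d 92 and 4.01 ± 0.62 at d 124.

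For bta-miR-1197 the levels were 2.77, 3.11, 1.80 and 3.28 at d 0 in steers 1 to 4. They were 2.15, 0.93, 0 and 0.93 at d 92. The d 92 level of steer 1 was above the d 0 level of steer 3, so the times overlapped, although each steer was lower at d 92 than at its own d 0. At d 124 the levels were 0.031, 2.06, 0 and 2.26. Steer 1 fell to the first step between d 92 and d 124, steer 3 was at the floor at both times, and steers 2 and 4 were higher again. The means were 2.74 ± 0.66 (SD, n = 4), 1.00 ± 0.88 and 1.09 ± 1.24 at d 0, d 92 and d 124.

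bta-miR-485 had levels of 3.06, 2.65, 3.42 and 3.28 at d 0. Its d 92 levels were 1.39, 3.27, 1.3 and 0 in steers 1 to 4, so that 3 steers were lower and steer 2 was higher than before concentrates. At d 124 it was at 2.13, 3.44, 2.48 and 3.28. The d 124 levels were higher than those at d 92 in 4 of 4 steers and overlapped with d 0. Its means were 3.10 ± 0.34 (SD, n = 4), 1.49 ± 1.35 and 2.83 ± 0.63, and the spread at d 92 was the widest of its 3 times.

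**Figure D2:**
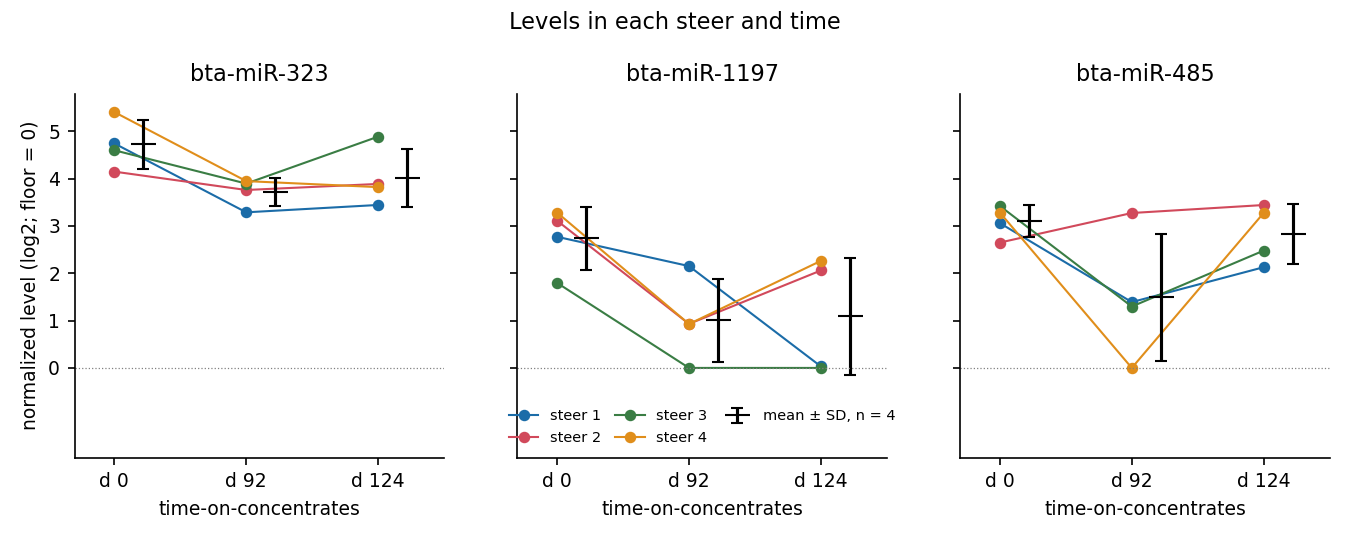
Normalized level (log2, vertical axis) of each miRNA at d 0, d 92 and d 124 (horizontal axis), with a coloured line for each of 4 steers, black bars for the mean ± SD and a dotted line for the floor. All 4 steers are lower at d 92 than at d 0 for bta-miR-323 and bta-miR-1197, and bta-miR-485 of steer 2 is higher.

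At d 92 against d 0, the comparison from which the study chose them, the log2 difference was -1.0 for bta-miR-323 (standard error 0.39, 95% interval -1.84 to -0.16, adjusted p = 0.754 from limma). The difference of bta-miR-1197 was -1.74 (95% interval -3.17 to -0.31, adjusted p = 0.754 from limma). That of bta-miR-485 was -1.61 (95% interval -3.05 to -0.17, adjusted p = 0.755 from limma). On a linear scale these are 2.00-fold, 3.34-fold and 3.06-fold lower levels, in which the d 92 libraries at the floor (1 each for bta-miR-1197 and bta-miR-485) enter with the value of the floor. The log fold changes listed by the study for bta-miR-1197 and bta-miR-485 are smaller decreases than the log2 differences here. Of the 3 miRNAs, 3 had an unadjusted p under 0.05 and were lower, against 3.8% of all 368 features, a count that the choice of the members set. In order of p they were the 10th, 9th and 15th of 368 features in limma. None of the 368 features passed an adjusted p of 0.05 in limma (0.0%), while 19 had an unadjusted p under 0.05 (5.16%). Over all 368 the lowest adjusted p from limma was 0.465 and the median difference was -0.091, with 61.4% of features below 0. The difference of bta-miR-1197 was between -2.12 (without d 92 replicate 1) and -1.40 (without d 92 replicate 3) with 1 library left out. That of bta-miR-485 was between -2.21 (without d 92 replicate 2) and -1.12 (without d 92 replicate 4). Without d 0 replicate 4, the library in which bta-miR-323 and bta-miR-1197 were at their highest, the difference of bta-miR-323 was -0.77.

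In that library, d 0 replicate 4, other miRNAs of like level were high too, for bta-miR-323 and bta-miR-485 more than for bta-miR-1197. The 37 other features within 1 (log2) of the mean level of bta-miR-323 lay a median of 0.63 above their own means there, against 1.26 for bta-miR-323. For bta-miR-485 the median of 46 such features was 0.65, against 0.81 for bta-miR-485. For bta-miR-1197 the median of 59 such features was 0.11, against 1.67 for bta-miR-1197. With each library shifted by the median of such features, bta-miR-323 had a difference of -0.69 at d 92, bta-miR-1197 of -1.74 and bta-miR-485 of -1.37. Adding 10 to the linear levels before the logarithm, which damps changes near the floor, brought the differences to -0.66, -0.47 and -0.46.

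At d 124 against d 0, bta-miR-1197 had a log2 difference of -1.65 (standard error 0.67, 95% interval -3.09 to -0.22, adjusted p = 0.496 from limma), or 3.14-fold lower, and its level was below d 0 in each of the 4 steers. For bta-miR-323 the difference was -0.72 (95% interval -1.55 to 0.12, adjusted p = 0.677 from limma), and 3 of 4 steers had a lower level. For bta-miR-485 it was -0.27 (95% interval -1.71 to 1.17, adjusted p = 0.953 from limma), and between -0.48 (without d 124 replicate 2) and -0.037 (without d 124 replicate 1) with 1 library left out. One of the members, bta-miR-1197, had an unadjusted p under 0.05 and was lower, as had 7.61% of all features (8.97% in either direction). All 3 estimates were below 0, as were those of 58.2% of the features, and no member had its d 124 libraries all below its d 0 libraries, which 2.72% had. These comparisons use the same d 0 libraries as those at d 92, so they are no second sample of the d 0 level.

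Between d 92 and d 124, bta-miR-485 had a log2 difference of 1.34 (standard error 0.67, 95% interval -0.098 to 2.78, adjusted p = 0.974 from limma), 2.54-fold higher at d 124. Without d 92 replicate 4, the library at the floor, it was 0.85. bta-miR-323 and bta-miR-1197 differed by 0.29 (95% interval -0.55 to 1.13) and 0.086 (95% interval -1.35 to 1.52). No member had an unadjusted p under 0.05 in this comparison, which 1.36% of the 368 features had, and 48.4% of the features had an estimate below 0. Whether the 3 miRNAs differ from each other in their course over time was not tested.

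**Figure D3:**
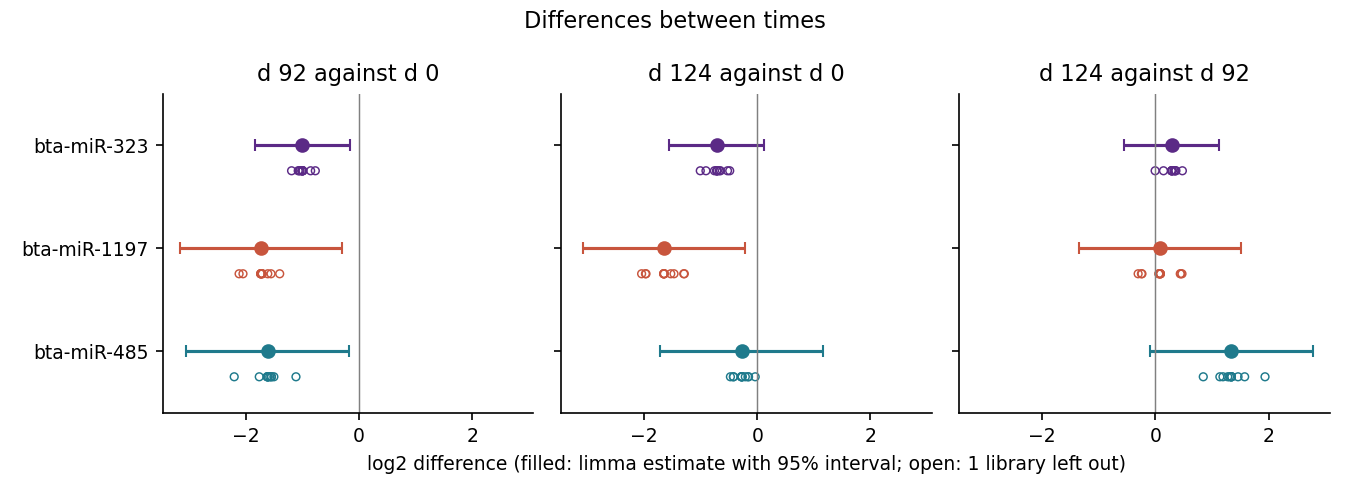
Log2 difference (horizontal axis) of each miRNA in the 3 comparisons of times, with filled points for the limma estimate, bars for its 95% interval and open points for the 12 fits that each leave out 1 library. At d 92 against d 0 all points lie below 0, and at d 124 against d 92 the open points of bta-miR-323 and bta-miR-1197 lie on both sides of 0.

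Steer by steer, the 3 miRNAs were lower together in steers 1, 3 and 4 at d 92 than at d 0. In these steers the log2 difference of bta-miR-323 was -1.46, -0.70 and -1.46. That of bta-miR-1197 was -0.62, -1.80 and -2.36, and that of bta-miR-485 was -1.67, -2.13 and -3.28. In steer 2 bta-miR-323 had a difference of -0.39 and bta-miR-1197 of -2.18, while bta-miR-485 was 0.62 higher. The steer with the smallest decrease was thus not the same for the 3 miRNAs: it was steer 2 for bta-miR-323, steer 1 for bta-miR-1197 and, with a higher level, steer 2 for bta-miR-485. Between d 0 and d 124 the 3 miRNAs were lower together in 2 of 4 steers, steers 1 and 4. In steer 4 the difference of bta-miR-485 was only -0.0057, so its level had hardly changed. Between d 92 and d 124 all 3 were higher in 1 steer.

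Over the 12 libraries, the log2 levels of the 3 miRNAs were weakly correlated. Pearson's r was 0.34 for bta-miR-323 and bta-miR-1197, the neighbours in the annotation (Spearman's rho 0.23), 0.39 for bta-miR-323 and bta-miR-485 (rho 0.24) and 0.45 for bta-miR-1197 and bta-miR-485 (rho 0.49). The 12 libraries come from 4 steers and are not independent, so no p is given. For comparison, r over all 67528 pairs of the 368 features had a median of 0.13 and quartiles of -0.13 and 0.38. Within times, as deviations from the mean of each time, r was -0.26, 0.0040 and 0.25 in the order above. Within steers it was 0.59, 0.54 and 0.52. With each library shifted by the median of features of like level, as above, r was 0.024, 0.25 and 0.31. The values within steers include the differences between times, through which the 3 miRNAs were chosen. Without d 0 replicate 4 the r of bta-miR-323 and bta-miR-1197 was 0.090, and without d 124 replicate 3 it was 0.58. Without the 2 libraries farthest from the median of the first-named miRNA, r was 0.43, 0.37 and 0.39.

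The highest level of both bta-miR-323 and bta-miR-1197 was in d 0 replicate 4, where bta-miR-485 ranked 3rd of 12. The lowest levels were in different libraries, d 92 replicate 1 for bta-miR-323, the d 92 and d 124 libraries of steer 3 for bta-miR-1197 and d 92 replicate 4 for bta-miR-485. In d 124 replicate 3, bta-miR-323 was at its second highest level (4.89) while bta-miR-1197 was at the floor.

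**Figure D4:**
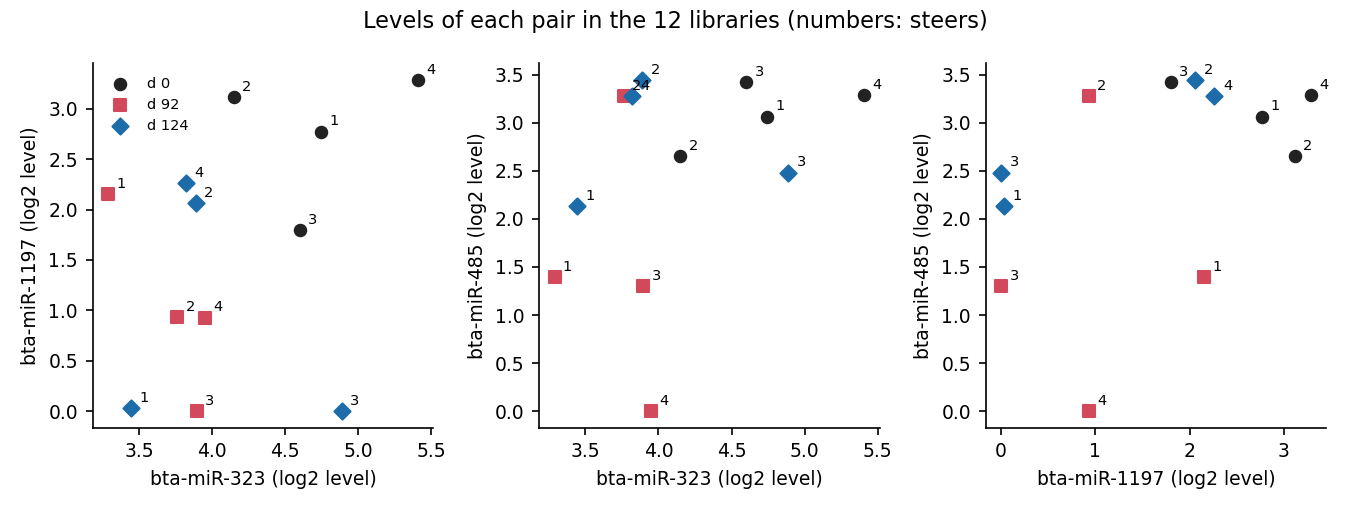
Normalized levels (log2) of each pair of the 3 miRNAs in 12 libraries, with black circles for d 0, red squares for d 92 and blue diamonds for d 124, and numbers for the steers. The d 0 libraries lie mostly to the upper right in each panel, and r within times was -0.26, 0.0040 and 0.25.

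The features with the most similar course over the 12 libraries differed between the members. For bta-miR-323 the closest were MI0005028 and MI0009855, with Pearson's r of 0.92 and 0.91, and neither identifier is paired with a name in the sources used here. In this order bta-miR-485 came 132nd and bta-miR-1197 152nd of 367 other features. By contrast bta-miR-196b, bta-miR-196a-2 and bta-miR-196a-1, which are encoded in the HOX gene clusters and can be named through the study's lists, came 5th, 7th and 9th, a choice made after these values were seen. Their r with bta-miR-323 was 0.82, 0.81 and 0.80 (Spearman's rho 0.80, 0.86 and 0.85). Within times r was 0.85, 0.87 and 0.84, and leaving out 1 library at a time gave between 0.72 and 0.92 for the 3. With the same miR-196 features, in the same order, bta-miR-1197 had r of 0.13, 0.17 and 0.15 and bta-miR-485 of 0.11, 0.075 and 0.046. Both miR-196a features were also looked for as markers of adipose tissue, and the part of adipose RNA in the level of bta-miR-323 was not tested. The mean level of bta-miR-196a-2 was 9.89 ± 0.45 (SD, n = 4) at d 0, 9.13 ± 0.93 at d 92 and 8.54 ± 1.03 at d 124. In the order of bta-miR-485, bta-miR-1197 came 11th and bta-miR-323 22nd of the 367 other features. The closest feature to bta-miR-485, which has no name in the sources used here, had r of 0.62. In the order of bta-miR-1197, bta-miR-485 came 53rd and bta-miR-323 106th. Another feature named in the study's d 92 list, bta-miR-449a, came 27th for bta-miR-323, 10th for bta-miR-1197 and 18th for bta-miR-485. Its r was 0.69, 0.66 and 0.41, and within times 0.41, 0.30 and 0.26. It was listed from the same comparison as the members and was added here after the values were seen. As all features come from the same libraries, a shift of a whole library adds to every such correlation.

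For bta-miR-1197 the features with the 3 highest r (0.77, 0.72 and 0.72) are in the same run of 40 consecutive miRBase rows of the table, in places 27, 18 and 3. Besides the members, 33 tested features lie in this run and 332 outside it. The closest feature of bta-miR-323 and that of bta-miR-485 are both outside the run. All 3 members are in this run, bta-miR-1197 in place 5, bta-miR-323 in place 6 and bta-miR-485 in place 29, with 22 rows between the last 2. The sources used here do not explain the order of the rows and do not name the other 37. No identifier of the other cluster miRNAs looked for by name could be matched, so the run was described in their place, after its values had been seen. Of the 37 rows, 33 were tested, with mean levels between 0.37 and 10.14 and a median of 4.60.

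At d 92 against d 0, 29 of these 33 features had a difference below 0, or 87.9%, against 58.4% of the 332 tested features outside the run. Their median difference was -0.33, against -0.059 outside. Of the 33, 4 had an unadjusted p under 0.05, all lower, and 0 passed the adjusted p in limma. Over all 368 features 14 were lower at that unadjusted p (3.8%), a count that includes the run and the members. An estimate below that of bta-miR-323 was found for 1 of 33, and below those of bta-miR-1197 and bta-miR-485 for 0, in the comparison for which the members were chosen. With 1 library left out the median of the run was between -0.40 and -0.10, and between 20 and 29 features were below 0. The count of 20, or 60.6%, was found without d 0 replicate 4, when 47.6% of the features outside were below 0 and the medians were -0.10 in the run and 0.0061 outside.

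At d 124 against d 0, 32 of the 33 were below 0, or 97.0%, against 53.9% outside the run, with a median difference of -0.70 against -0.028. Here 13 of the 33 had an unadjusted p under 0.05, all lower, and again 0 passed the adjusted p in limma. Over all 368 features 28 were lower at that unadjusted p (7.61%), a count that includes the run and bta-miR-1197. With 1 library left out the median lay between -0.79 and -0.48, and between 30 and 33 features were below 0. Among the 33, the estimate was below that of bta-miR-1197 for 0, below that of bta-miR-323 for 15 and below that of bta-miR-485 for 27. Between d 92 and d 124, 30 of the 33 were below 0, against 44.6% outside the run, with a median of -0.33 against 0.038. The estimates of the 3 members were 0.29, 0.086 and 1.34.

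**Figure D5:**
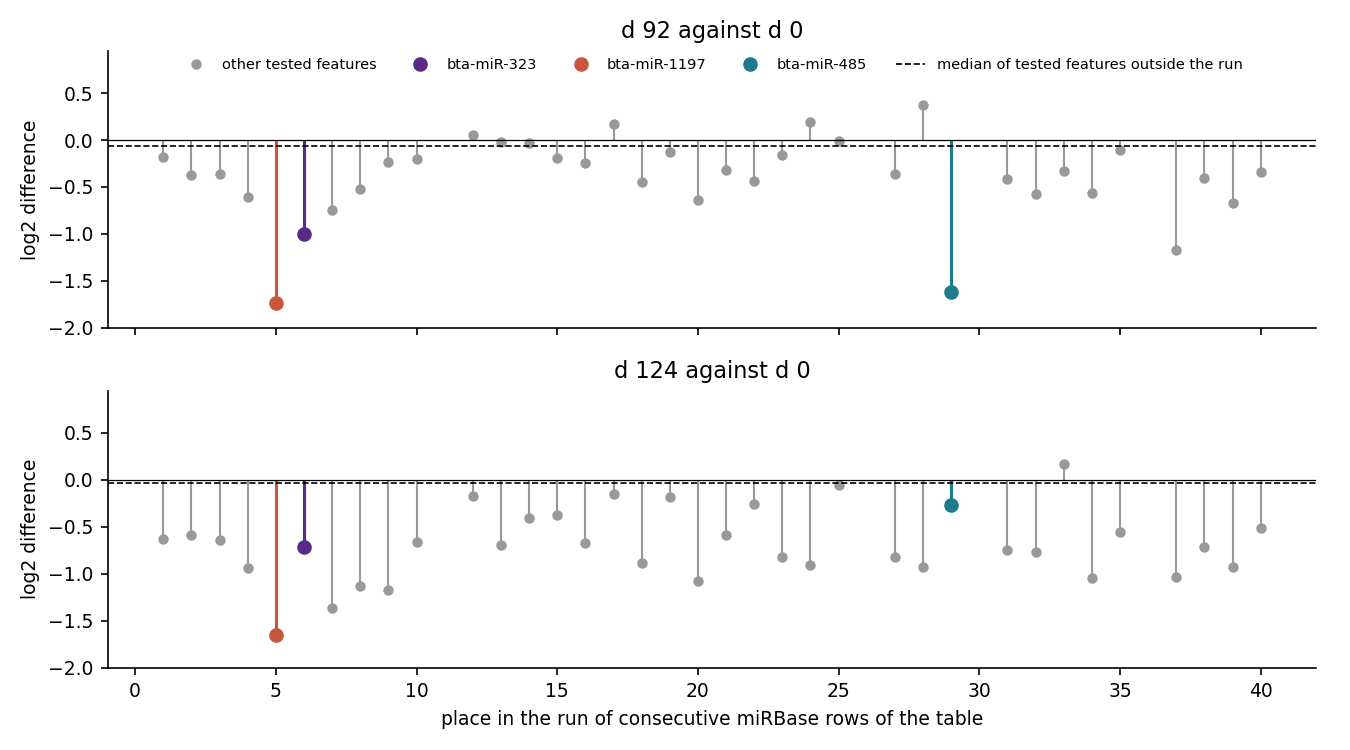
Log2 difference (vertical axis) of each tested feature at its place in the run of 40 consecutive miRBase rows (horizontal axis), at d 92 against d 0 (top) and d 124 against d 0 (bottom), with the 3 members in colour, the other 33 in grey and a dashed line for the median of 332 features outside the run. At d 124 all but 1 of the grey points lie below 0, with a median of -0.70, and bta-miR-485 is at -0.27.

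By library, the run was highest in d 0 replicate 4, where 30 of 33 features were above their own mean and their median deviation was 0.85, against 0.41 for the 332 features outside. In d 0 replicate 1 the run was about as high as the features outside (median 0.27 against 0.24). At d 0 in replicates 2 and 3 the run was above its means (median 0.36 and 0.089) while the features outside were below theirs (median -0.27 and -0.18). At d 92 the median deviation of the run was 0.089, -0.050, -0.14 and 0.18 in replicates 1 to 4, with 21, 16, 11 and 26 of the 33 above their means. At d 124, 27, 21, 27 and 26 of the 33 were below their means, with medians of -0.56, -0.085, -0.22 and -0.28. The features outside had medians of -0.23, -0.053, 0.093 and 0.13 in these d 124 libraries, so that in replicate 1 both were low. The median r with the 33 features was 0.46 for bta-miR-1197, 0.34 for bta-miR-323 and 0.063 for bta-miR-485. With the features outside the run it was 0.13, 0.27 and 0.031.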

How the data were processed

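Per the study's methods, the authors aligned small RNA reads (Ion S5) to bosTau4 in StrandNGS and quantile normalized them. The deposited values are log2 values made by the authors, 1 column per library, with each feature's median subtracted. Column names give the second time by a slightly earlier day than the d 92 of the labels, and the labels were followed. For the StrandNGS version, the log base and reads of copied genes, nothing is given in the sources used here. Base 2 was assumed. Medians were recovered for 1303 of 1314 features that vary, by matching values to levels shared between libraries (tolerance 3e-06). They cancel in the differences between times, except where a number was added to the linear levels. The similar-level shift also rests on them, through the choice of its features. The study gives its raw reads as a total over all libraries and a minimum per library. The table holds no counts, the depth of each single library was not known here, and no counting interval is given.

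Time was the only term of a limma fit (version 3.58.1, R 4.3.3, trend and robust estimation) over 12 libraries. Its trend followed the mean of each feature's centred values, which does not give the feature's level. A trend on the recovered level was an alternative. It took in 368 miRNA features, those that exceeded the floor in 4 or more libraries, and p-values were adjusted over them by Benjamini-Hochberg. Python 3.11.15 gave levels, steps, correlations and plots, through numpy 2.4.6, pandas 2.3.3, matplotlib 3.10.9 and scipy 1.17.1. The recovery of medians and the limma code were run on simulated data to check the code. The values simulated for limma had no floor and no shared steers, so they show nothing about power here. Same-numbered libraries come from 1 steer: their deviations from the time means had correlations with a median of 0.12 over 12 pairs, against -0.026 over 36 pairs of different steers. The study's analysis of variance had no steer term, so a steer block was an alternative.

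The members, lists and tests were chosen with earlier results of these data known. Named features are the 3 members, those of most similar course, and the run of rows that holds them, added later. No mature sequence is printed, since none was in the files used here.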

Additional observations from a re-analysis of the deposited data

How the results depend on the processing

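In limma, 0 features passed an adjusted p of 0.05 in each of the 3 comparisons under the alternatives counted over all features. The similar-level shift differs by member and was read for that member alone, so it gives no such count. Over all alternatives the smallest adjusted p of a member was 0.329 (bta-miR-1197, d 124 against d 0, with the steer as a replicate block). Of 180 alternative values of the 9 differences, 175 kept their direction, but many of these could not change it. The replicate block, the other filters and the other trend settings leave the estimate as it was. So does leaving out a library of the time that is not compared. With the similar-level shift removed, bta-miR-485 at d 124 against d 0 was 0.031 in place of -0.27. At d 124 against d 92, bta-miR-323 lay between -0.0053 (without d 124 replicate 3) and 0.48, and bta-miR-1197 between -0.31 and 0.47 when 1 library was left out. It was below 0 without d 92 replicate 3 (-0.25) and without d 124 replicates 2 (-0.24) or 4 (-0.31). The causes were not tested. Within times, the correlation of bta-miR-323 with bta-miR-1197 was -0.26 and that with bta-miR-485 was 0.0040.

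With the replicate block the differences were the same (-1.0, -1.74 and -1.61 at d 92 against d 0). Over all members and comparisons their adjusted p from limma was between 0.329 and 0.968, and the block changed no call. At an unadjusted p under 0.05, 33 features at d 124 against d 0 became 20 without d 124 replicate 1. The 5 at d 124 against d 92 became 3 with a filter of 8 libraries, 8 without d 0 replicate 4 and 14 without d 92 replicate 3. The fit with the trend on the recovered level was chosen after seeing the data.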
